A study of Mus musculus with 12 samples.

Results

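The receptors Egfr, Erbb2 and Erbb3 and the ligands Areg, Ereg, Hbegf, Tgfa, Epgn and Btc, the EGF receptor family and its ligands, were followed in peeled mouse urothelium, the epithelial lining of the urinary tract stripped from the tissue beneath it. These 9 genes were taken by symbol from 23337 listed in both count tables, and all 9 were found. There were 3 libraries in each of 4 groups: Stag2-WT and Stag2-KO mice, each taken 1 week or 1 month after TMX feeding began. TMX is taken to stand for tamoxifen, and WT and KO animals alike ate it for 1 week. Stag2 codes for a subunit of cohesin, the ring-shaped complex that loops and pairs DNA. The alleles, the Cre driver and the age of the animals are not given in the sources used here. The study profiled the tissue for the transcript changes that follow loss of Stag2, and the family is described here beside genes of dividing cells.

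The EGF receptor (Egfr) and its relatives Erbb2 and Erbb3 are receptor tyrosine kinases that pair on ligand binding and switch on the Ras, ERK and PI3K pathways. Their ligands are made as membrane-bound precursors and are cut free by ADAM proteases, so a cell can signal to itself and its neighbours. Erbb2 binds no known ligand of its own and works as the partner of the others, while Erbb3 binds neuregulins and has a weak kinase. In epithelia, the urothelium among them, this pathway is known for driving repair after injury.

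Of the 9 genes, 4 ligands lie beside each other on chromosome 5 of GRCm38, the build named mm10 in the submitters' processing notes. In genome order they are Epgn, Ereg, Areg and Btc, and they span 376 kb from position 91027464 to 91402994 in the GENCODE M21 annotation. The start of Ereg lies 47.2 kb, that of Areg 112.1 kb and that of Btc 375.5 kb from the start of Epgn. Egfr and Erbb2 lie on chromosome 11, Erbb3 on chromosome 10 and Tgfa on chromosome 6. RefSeq promoters (build GRCm38.p6, 250 bases before and 50 bases from the start on) were found for 6 of the 9 genes. Of the chromosome 5 ligands, Epgn, Areg and Btc had an entry, and theirs are printed because these neighbours differed in their values, with every searched motif in capitals and all else in lower case, each 5′ to 3′ on the gene's own strand.
Epgn, chr5:91027267-91027566, plus strand: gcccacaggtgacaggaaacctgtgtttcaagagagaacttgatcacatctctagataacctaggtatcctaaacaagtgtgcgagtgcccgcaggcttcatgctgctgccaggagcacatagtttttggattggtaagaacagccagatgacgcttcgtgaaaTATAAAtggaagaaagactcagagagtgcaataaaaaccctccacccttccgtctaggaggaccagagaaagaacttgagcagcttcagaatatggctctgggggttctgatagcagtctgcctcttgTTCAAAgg
Areg, chr5:91139349-91139648, plus strand: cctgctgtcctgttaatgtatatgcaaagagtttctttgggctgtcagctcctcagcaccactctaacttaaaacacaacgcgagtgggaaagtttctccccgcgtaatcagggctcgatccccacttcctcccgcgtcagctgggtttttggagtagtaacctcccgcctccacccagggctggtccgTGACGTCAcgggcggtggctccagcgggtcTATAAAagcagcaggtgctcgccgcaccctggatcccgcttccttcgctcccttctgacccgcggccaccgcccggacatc
Btc, chr5:91402945-91403244, minus strand: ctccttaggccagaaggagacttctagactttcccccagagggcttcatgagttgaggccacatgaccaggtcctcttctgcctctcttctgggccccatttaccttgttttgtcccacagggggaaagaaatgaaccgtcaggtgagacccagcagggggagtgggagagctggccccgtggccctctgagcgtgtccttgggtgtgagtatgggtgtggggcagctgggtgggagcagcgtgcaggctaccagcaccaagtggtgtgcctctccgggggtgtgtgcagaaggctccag

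The motifs searched were AP-1 (TGANTCA), the cyclic AMP response element CRE (TGACGTCA), the CHR element of cell cycle genes (TTTGAA), E2F (TTTNNCGC) and TEAD (GGAATG), each on both strands, and the TATA box (TATAAA) on the gene's strand only. No 2 matches overlapped in the printed promoters. The Areg promoter held the CRE letters, starting 61 bases before the start, and the TATA letters, starting 31 bases before it. The CRE letters occur in 1.79% of 32851 promoters of this length and the TATA letters in 8.32%. The Epgn promoter held TATA letters starting 86 bases before the start and the CHR letters on the minus strand from base 43 on, a motif found in 17.9% of promoters. The Btc promoter held none of these letters. Positions count from the RefSeq start, which for Epgn is not the GENCODE start, and a match says only that these letters are there.

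Total counts ran from 5580961 to 9497088 per library, so that 3 counts correspond to between 0.324 and 0.587 CPM. CPM are counts relative to the library total, scaled by TMM over all 12 libraries, and this floor of 3 counts covers counting error only. Stag2 was lower in every KO library than in every WT library of the same time, with 59.7 to 75.9 CPM in KO and 106.3 to 161.96 CPM in WT at 1 week. At 1 month it was 19.8 to 38.4 CPM in KO and 46.2 to 60.1 CPM in WT. Xist, transcribed from the inactive X chromosome, had 6392 to 10406 counts in the KO libraries of 1 week against at most 13 in WT. Genotype and sex can therefore not be told apart at 1 week, while at 1 month KO replicate 3 alone had Xist, with 7764 counts. All 15 urothelial markers, such as uroplakins and keratins, had counts in every library. KO replicate 3 of 1 week stood apart from the other KO libraries, with a chi-square per gene of 128.4 and 185.2 against them, while they had 55.8 between them.

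Ligands separated into those with higher values in KO at 1 week and those without. Ereg, Hbegf and Epgn were higher in each of the 3 KO libraries than in any WT library, Btc was far higher in 1 KO library, and Areg and Tgfa overlapped. Among genes tested by edgeR, 2 of 8 family members (Ereg and Hbegf) showed such a separation, against 12.4% of all 12754, and Epgn was not tested. The receptors overlapped between the genotypes. By edgeR's quasi-likelihood test with Benjamini-Hochberg adjustment over 12754 genes, 0 of the 8 family members tested passed 0.05, against 0.0627% of all genes. Of those 8, 3 had an unadjusted p under 0.05 with a higher value in KO, against 10.5% of all genes. DESeq2, run as an alternative, called 4 of the 9, all higher, against 4.67% of the genes it gave an adjusted p. Epgn had too few counts for edgeR's filter, and Ereg passed it only through its KO libraries, so the count over tested genes is a description.

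Ereg codes for epiregulin, a ligand of Egfr and Erbb4. Its counts were 11, 7 and 3 in WT replicates 1, 2 and 3 and 25, 293 and 188 in KO replicates 1, 2 and 3 at 1 week. In CPM this is 0.826 ± 0.512 (SD, n = 3) in WT and 23.7 ± 17.8 in KO. KO replicates 2 and 3, at 31.6 and 36.2 CPM, were far above KO replicate 1, at 3.37 CPM, which was itself above the highest WT library, at 1.35 CPM. The log2 fold change was 4.90 (SE 1.00, 95% interval 2.56 to 7.24), with an edgeR adjusted p of 0.115 and an unadjusted p of 0.00149. The adjusted p was 6.55e-06 by DESeq2, 0.0387 in edgeR without KO replicate 1, and 0.0183 in edgeR when all 12 libraries shared a fit. Over all 13 alternatives it ran up to 0.507, and the log2 fold change stayed between 4.43 and 5.41. At 1 month Ereg had at most 3 counts in any library, at or under the floor in both genotypes.

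Hbegf codes for heparin-binding EGF-like growth factor, a ligand of Egfr and Erbb4, and lies on chromosome 18. At 1 week it had 7.85, 7.68 and 12.3 CPM in WT, against 20.7, 27.5 and 62.8 CPM in KO. Every KO library was above every WT library, and KO replicate 3 was the highest. The means were 9.28 ± 2.62 CPM in WT, against 37.0 ± 22.6 CPM in KO (SD, n = 3). The log2 fold change was 2.07 (SE 0.50, 95% interval 0.90 to 3.25), with an edgeR adjusted p of 0.139. It was 1.38 without KO replicate 3, with an adjusted p of 0.0618, and DESeq2 gave an adjusted p of 0.00571 on all libraries. Over the 13 alternatives the edgeR and DESeq2 adjusted p ran from 0.00571 to 0.509.

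Epgn codes for epigen, an Egfr ligand. It had 0 counts in all 3 WT libraries of 1 week and 1, 16 and 19 counts in KO replicates 1, 2 and 3. The KO mean of 1.84 CPM was at least 5.31-fold higher than the floor of 3 counts per WT library, and KO replicate 1 was itself under that floor. The exact two-sided permutation test gave p = 0.1, the smallest possible with 3 against 3. DESeq2 gave an adjusted p of 0.00950, and edgeR without a filter on low counts gave 0.149. At 1 month Epgn had 0 counts in all 6 libraries.

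Btc codes for betacellulin, which binds Egfr and Erbb4. Its CPM at 1 week were 6.50, 5.05 and 10.8 in WT and 7.002, 12.7 and 154.7 in KO. KO replicate 3 held 803 Btc counts, against 52 and 118 in the others, and KO replicate 1 lay within the WT range. On the log2 scale KO was 3.07 above WT (SE 1.15, edgeR adjusted p 0.275), and 0.43 without KO replicate 3 (adjusted p 0.641). DESeq2 gave an adjusted p of 0.0316 with all libraries.

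Areg codes for amphiregulin and Tgfa for transforming growth factor alpha, both ligands of Egfr. Areg had 2.70, 4.70 and 2.72 CPM in WT, against 0.808, 10.2 and 3.08 CPM in KO at 1 week. KO replicate 1 was the lowest of the 6 libraries and KO replicate 2 the highest. The log2 fold change was 0.55 (95% interval -1.38 to 2.49, edgeR adjusted p 0.761), and -0.79 without KO replicate 2. Tgfa had 4.79, 6.08 and 14.6 CPM in WT, against 3.90, 3.67 and 11.7 CPM in KO, with replicate 3 the highest in both genotypes. Its log2 fold change was -0.32 (95% interval -1.83 to 1.19, adjusted p 0.823), and 0.24 without WT replicate 3. Both intervals include 0 and also changes of over 2-fold on the linear scale.

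All 3 receptors overlapped between the genotypes at 1 week, and their 95% intervals included 0. Egfr had 32.9, 25.0 and 35.5 CPM in WT, against 28.7, 45.1 and 47.0 CPM in KO. On the log2 scale KO was 0.44 above WT (95% interval -0.29 to 1.18, edgeR adjusted p 0.520), and KO replicate 1 lay within the WT range. Erbb2 had 59.4, 56.6 and 67.3 CPM in WT, against 70.4, 40.1 and 94.8 CPM in KO, so its KO libraries lay on both sides of the WT libraries. The log2 fold change of Erbb2 was 0.23 (95% interval -0.61 to 1.07, adjusted p 0.768), and -0.16 without KO replicate 3. Erbb3 had 3.19, 2.18 and 4.14 CPM in WT, against 6.06, 1.83 and 12.7 CPM in KO. Its log2 fold change was 1.18 (95% interval -0.47 to 2.82, adjusted p 0.448), and 0.28 without KO replicate 3. No receptor was called by edgeR or by DESeq2.

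**Figure D1:**
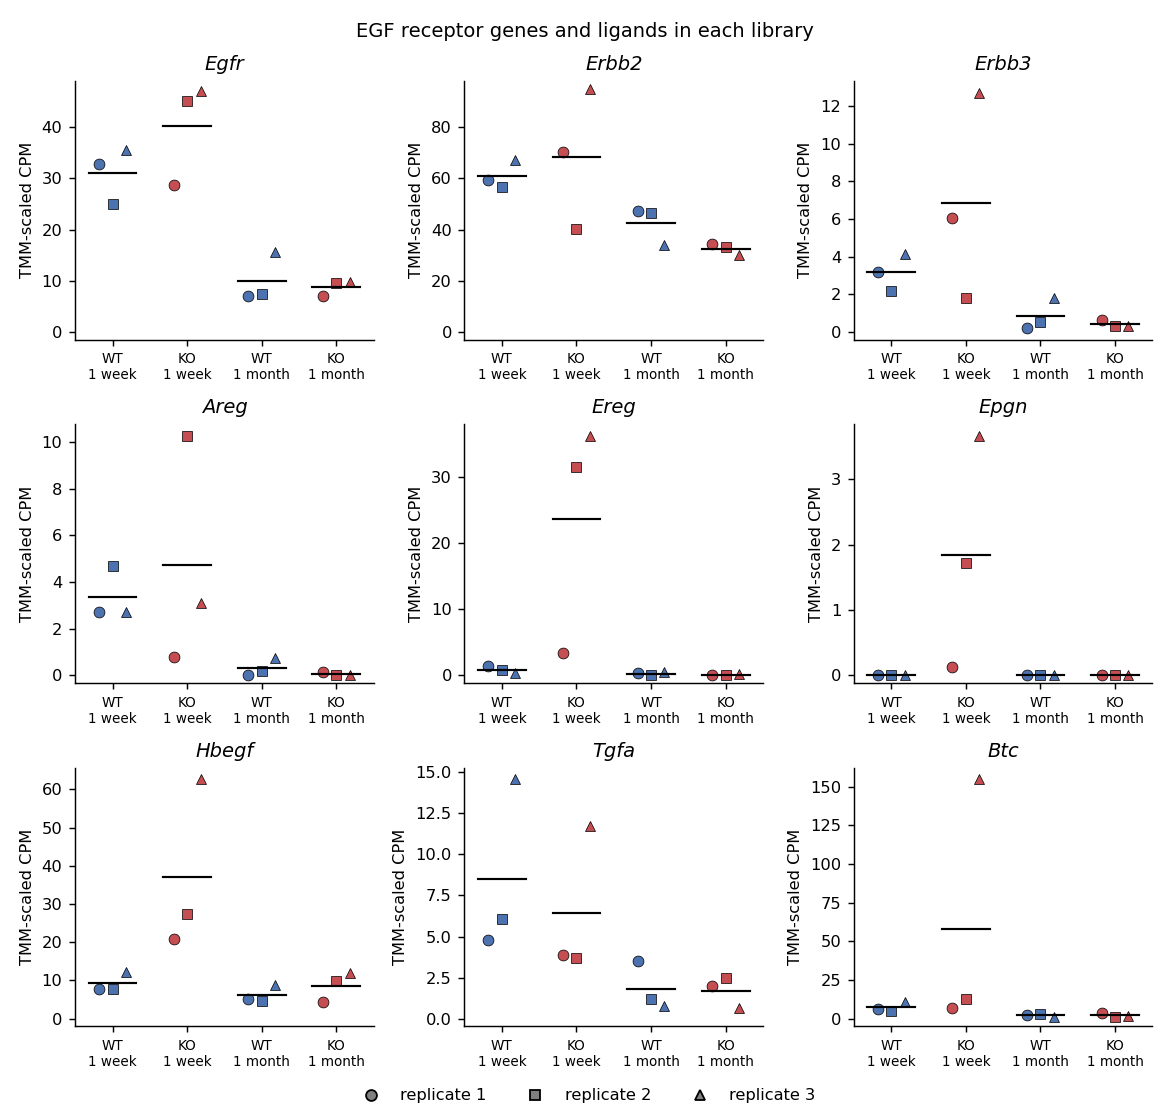
TMM-scaled CPM (vertical axes, linear) of each gene in the 12 libraries, with circles, squares and triangles for replicates 1, 2 and 3, blue for WT, red for KO, and a bar at each group mean. Ereg, Epgn and Hbegf have all 3 KO points of 1 week above the WT points, and Btc has 1 KO point at 154.7 CPM.

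Summed over the 6 ligands, CPM were 23.2, 24.3 and 40.7 in the WT libraries and 35.95, 87.5 and 272.1 in the KO libraries of 1 week. KO replicate 1 thus lay under WT replicate 3, while KO replicates 2 and 3 lay above all WT libraries. The 3 receptors together had 95.5, 83.8 and 106.9 CPM in WT, against 105.2, 87.1 and 154.5 CPM in KO, with KO replicate 3 alone outside the WT range.

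Among the 8 family genes in the fit of 12 libraries, Ereg had the highest correlation with Mki67. Mki67, the gene of the Ki-67 protein of cycling cells, had 22, 25 and 18 counts in WT, against 202, 1743 and 771 in KO at 1 week (edgeR adjusted p 0.0844). Of 15 proliferation genes, 13 were tested, 0 passed in edgeR, 9 had an unadjusted p under 0.05 with a higher value in KO (10.5% of all genes), and DESeq2 called 9 higher (4.67%). Ccnb1, Ccnb2 and Cdk1 had at most 7 counts in any WT library of 1 week and passed the count filter through KO. Plk1, Rrm2 and Mcm6, with as few as 3, 2 and 11 counts in a WT library of 1 week, also needed KO to pass. The numbers of genes called are therefore a description. Top2a, a topoisomerase of dividing cells, had a log2 fold change of 4.28 and Ccnb1, cyclin B1 of mitotic entry, of 5.49. Across the 12 libraries, with log2 CPM centred within each sequencing batch, Pearson's r with Mki67 was 0.95 for Ereg, 0.77 for Hbegf, 0.60 for Btc and 0.47 for Egfr. It was 0.18 for Areg, 0.17 for Erbb3, 0.12 for Erbb2 and -0.13 for Tgfa. The points share their libraries and depth, and centring within batch kept the difference between KO and WT at 1 week. These r therefore draw on the same libraries as the fold changes and are a description.

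Among 13122 genes, those whose centred values were most like Ereg included Kif11 and Cenpe (r = 0.97 for each), motor proteins of the mitotic spindle. Outside the KO libraries of 1 week Ereg had at most 11 counts, so its r rests mainly on those libraries, which also gave its fold change. The same search gave Parp3, Tmem100 and Gucy1b3 for Hbegf (r from 0.95 to 0.96) and Acot9, Pcdh1 and Odz4 for Btc (r = 0.98 for each). It gave Rad18, Hn1l and Cfp for Egfr (r from 0.90 to 0.96), and Zfpm1, A930001N09Rik and Nat9 for Erbb2 (r from 0.95 to 0.98). For Erbb3 it gave Bend7, Hmbox1 and Fam133b (r from 0.94 to 0.96). For Areg it gave Far1, Heatr3 and Kctd12 (r from 0.85 to 0.89), and for Tgfa 2900076A07Rik, Rbm20 and Ube2w (r from 0.87 to 0.91). Among the family, Ereg and Hbegf had r = 0.77, Hbegf and Btc 0.69, Ereg and Btc 0.66, and Ereg and its neighbour Areg 0.32.

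**Figure D2:**
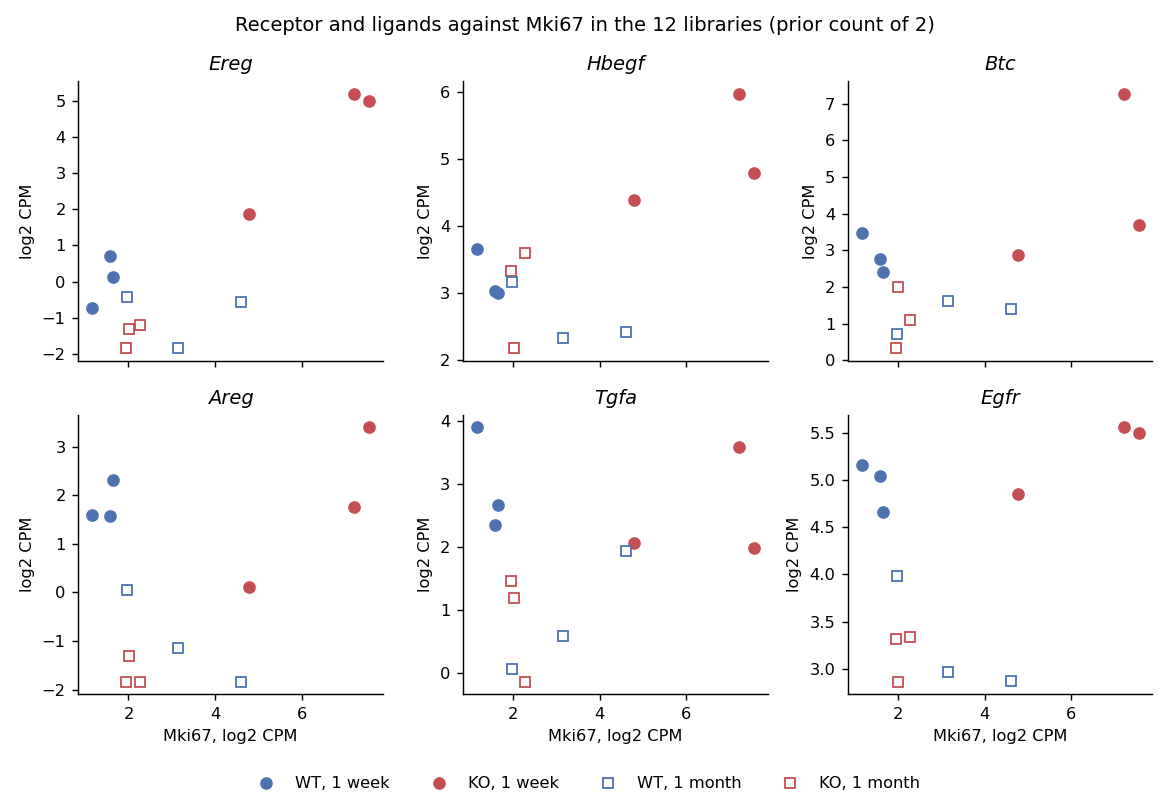
Log2 CPM (prior count of 2) of 5 ligands and Egfr on the vertical axes against log2 CPM of Mki67 on the horizontal axes, with 1 point per library, filled circles for 1 week, open squares for 1 month, blue for WT and red for KO. The Ereg values of the 3 KO libraries of 1 week lie above all others, while the Tgfa values of KO and WT overlap.

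Between the ligand genes of chromosome 5, the values changed from gene to gene. Epgn and Ereg, the pair at the Mthfd2l end, were higher in all KO libraries at 1 week, Areg overlapped, and Btc was high in KO replicate 3. The nearest listed genes with enough counts on either side, Mthfd2l and Parm1, overlapped between the genotypes. Mthfd2l, a mitochondrial folate enzyme, had means of 6.38 CPM in WT, against 4.80 CPM in KO (log2 fold change -0.34, edgeR adjusted p 0.811). Parm1 had 280.8 CPM in WT, against 392.7 CPM in KO (log2 fold change 0.56, adjusted p 0.518). Rchy1, farther out beyond Parm1, was lower in each KO library, with means of 32.8 CPM in WT, against 19.6 CPM in KO (log2 fold change -0.68, adjusted p 0.366).

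**Figure D3:**
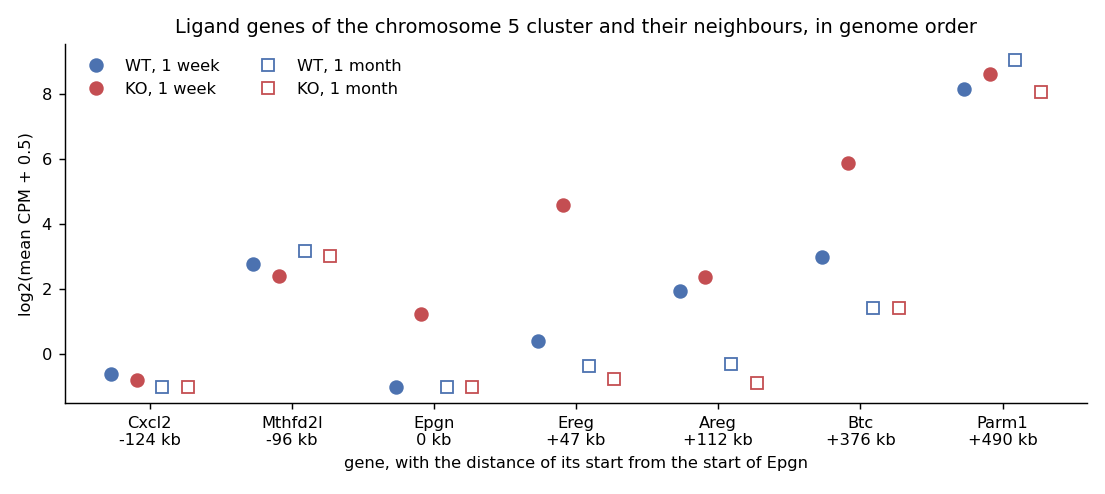
Mean CPM of each group as log2(mean CPM + 0.5) on the vertical axis for the genes of the chromosome 5 cluster and its neighbours in genome order, with the distance of each start from the Epgn start below the name, circles for 1 week, squares for 1 month, blue for WT and red for KO. The KO circles of Epgn, Ereg and Btc lie above the WT circles, while those of Areg, Mthfd2l and Parm1 lie close together.

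Markers of other cell types had higher sums in KO than in WT at 1 week, with 0 of them past edgeR's threshold. For 8 of 13 smooth muscle and fibroblast, 2 of 5 endothelial and 3 of 7 leukocyte markers tested, the unadjusted p was under 0.05 with a higher value in KO. This held for 10.5% of all genes. DESeq2 called 4, 1 and 1 of these lists higher, against 4.67% of the genes it gave an adjusted p. The summed level of 13 smooth muscle and fibroblast markers was 5898 to 11299 CPM in KO and 3909 to 6011 CPM in WT, overlapping slightly, with all 13 detected in every library. The 5 endothelial markers summed to 252.5 to 420.2 CPM in KO and 155.2 to 173.8 CPM in WT. The 10 leukocyte markers summed to 251.9 to 463.6 CPM in KO and 142.5 to 239.1 CPM in WT, with Cd68 at 0 in KO replicate 3 and Cd79a at 0 in KO replicate 2 and WT replicate 3. The 15 urothelial markers summed to 9190 to 13363 CPM in KO and 11306 to 14854 CPM in WT. In RNA pooled over the cells of a peeled sample, more cells of a type and more RNA per cell cannot be told apart. The part of these cells in the ligand values was not tested.

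At 1 month none of the family differed between the genotypes in a way the test could detect. With batch as a covariate, edgeR tested 5 of the 9 genes and called 0, against 2.22% of 12139 genes, and 0 had an unadjusted p under 0.05, against 21.5% of all genes. DESeq2 gave an adjusted p for 4 of the 9, Egfr, Erbb2, Hbegf and Btc, and called 0 of them, against 6.21% of genes with one. In 0 of the 5 genes tested did all KO libraries lie above WT, against 6.88% of all genes. Hbegf had 5.08, 4.72 and 8.69 CPM in WT, against 4.24, 9.80 and 11.9 CPM in KO, with overlap. Its log2 fold change was 0.43 (95% interval -0.36 to 1.23, adjusted p 0.517), and the mean difference of log2 CPM was 0.38 within batch 2 and 0.44 within batch 3. Here and below, a batch 3 value sets KO replicate 3, the library with Xist, against WT replicate 3 alone. Genotype and sex cannot be told apart in batch 3. Erbb2 had 47.1, 46.5 and 34.2 CPM in WT, against 34.4, 33.3 and 30.1 CPM in KO. The lowest WT library, of batch 3, lay just under the highest KO library. The Erbb2 log2 fold change was -0.42 (95% interval -0.87 to 0.03, adjusted p 0.269), with -0.46 and -0.18 within batches 2 and 3.

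Egfr at 1 month had 7.04, 7.52 and 15.6 CPM in WT, against 6.98, 9.64 and 9.83 CPM in KO. Its log2 fold change was -0.16 (95% interval -0.86 to 0.54, edgeR adjusted p 0.805), with 0.17 within batch 2 and -0.65 within batch 3. Tgfa ran from 0.762 to 3.52 CPM in WT and from 0.624 to 2.45 CPM in KO (log2 fold change -0.17, adjusted p 0.882). Btc ran from 1.37 to 2.80 CPM in WT and from 0.980 to 3.74 CPM in KO (log2 fold change 0.02, adjusted p 0.984). Areg had at most 5 counts and Erbb3 at most 12 in any library of 1 month, too few for the filter. KO replicate 3, the library of 1 month with Xist, had 1 count of Ereg, 0 of Epgn and 0 of Areg.

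**Figure D4:**
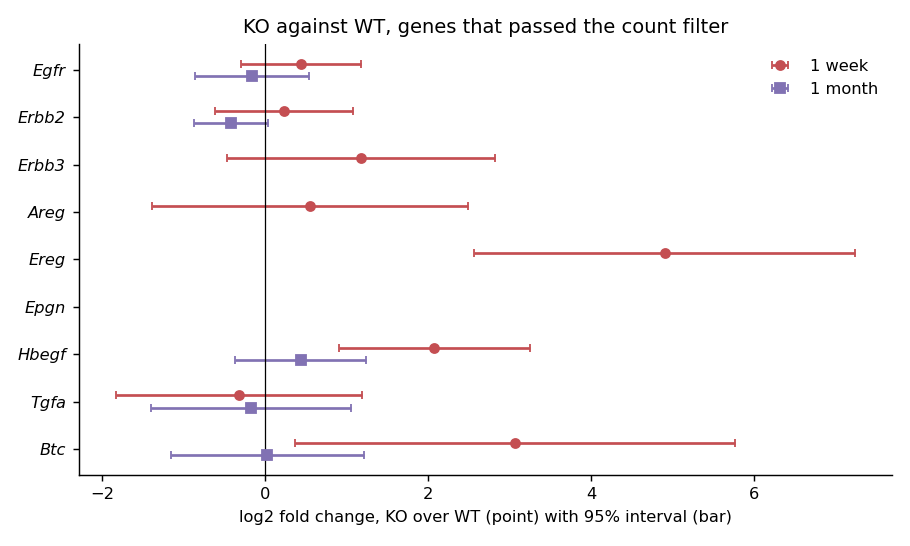
Log2 fold changes of KO over WT (horizontal axis, edgeR) with 95% intervals as bars, circles for 1 week and squares for 1 month, for each gene that passed the count filter at that time. At 1 week the intervals of Ereg, Hbegf and Btc lie above 0, and at 1 month all 5 intervals include 0.

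Levels at 1 month were lower than at 1 week in both genotypes for most of the family, but time and sequencing batch cannot be told apart. Egfr averaged 31.1 ± 5.46 CPM in WT at 1 week and 10.04 ± 4.78 CPM in WT at 1 month (SD, n = 3), without overlap. In WT, Areg had 22 to 41 counts at 1 week, against 0 to 5 at 1 month. Hbegf overlapped between the times in WT, with 7.68 to 12.3 CPM at 1 week and 4.72 to 8.69 CPM at 1 month. In order of the group means, all genes of the family except Tgfa were highest in KO at 1 week, and Tgfa in WT at 1 week. For Ereg, WT at 1 week followed and both groups of 1 month were at or under the floor, and for Epgn the other 3 groups had 0 counts.

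A change in the KO effect from 1 week to 1 month was tested as an interaction over 12 libraries, with batch in the fit. Of the 8 genes tested, 0 passed in edgeR, against 0.0% of 13122 genes, and 2 had an unadjusted p under 0.05, against 19.9% of all genes in either direction, and both had a lower effect at 1 month. DESeq2 called 1, Ereg, against 6.18% of genes with an adjusted p. For Ereg the effect at 1 month minus that at 1 week was -6.26 on the log2 scale (SE 1.97, edgeR adjusted p 0.148, DESeq2 adjusted p 0.00809), and the edgeR adjusted p was 0.0402 without KO replicate 1 of 1 week. For Hbegf the difference was -1.63 (SE 0.65, edgeR adjusted p 0.209), and for Btc -3.03 (SE 1.45, adjusted p 0.265). Epgn has no interaction value, because it had no count at 1 month.

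Of the rest of the ErbB family, Nrg1 and Nrg2 had enough counts for a test at 1 week, and Nrg2 alone at 1 month. Nrg1, neuregulin 1, a ligand of Erbb3 and Erbb4, had 6, 4 and 0 counts in WT, against 11, 50 and 43 in KO at 1 week, and 0 in all 6 libraries of 1 month. All KO libraries were above the WT libraries at 1 week, as for 12.4% of all genes tested, and KO replicate 1 was again the lowest of them. The Nrg1 log2 fold change was 3.69 (SE 1.04, edgeR adjusted p 0.173, DESeq2 adjusted p 0.00851). Nrg1 passed the count filter only through its KO libraries, so these values are a description. Nrg2 had 9.89 CPM in WT, against 6.15 CPM in KO on average at 1 week, with overlap (log2 fold change -0.63, edgeR adjusted p 0.588), and -0.48 at 1 month (adjusted p 0.511). Egf and Nrg4, also ligands, went the other way at counts too low for the test. Egf had 6, 8 and 2 counts in WT, against 1, 1 and 0 in KO at 1 week. Nrg4 had 2, 6 and 5 counts in WT, against 0 in all 3 KO libraries. Both were thus lower in every KO library than in any WT library at 1 week, as were 2080 of the 23337 listed genes. Their KO libraries and their lowest WT library, at 2 counts, were all under the floor of 3 counts. Erbb4, the fourth receptor, had at most 9 counts in any library and Nrg3 at most 1.

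Genes that release ligands were next. Of 8 tested at 1 week, 0 passed in edgeR or DESeq2, 4 had an unadjusted p under 0.05 with a higher value in KO (10.5% of all genes), and the median log2 fold change was 0.99, beside 0.02 over all genes. Rhbdf1, an inactive rhomboid that helps bring the main ligand-cutting protease ADAM17 to the cell surface, had 32.03 to 36.6 CPM in WT, against 46.2 to 65.5 CPM in KO (log2 fold change 0.85, edgeR adjusted p 0.217). Timp3, an inhibitor of these proteases, had 274.7 to 350.5 CPM in WT, against 403.8 to 827.6 CPM in KO (log2 fold change 1.13, adjusted p 0.208). Adam15 had 405.0 CPM in KO replicate 3 and 29.6 to 90.5 CPM in the other 5 libraries (log2 fold change 2.16, adjusted p 0.266). At 1 month 0 of 7 passed, 1 had an unadjusted p under 0.05 (21.5% of all genes in either direction) and DESeq2 called 0. That gene was Rhbdf2 (log2 fold change 0.89, edgeR adjusted p 0.209), while Rhbdf1 and Adam15 had 0.41 and -0.31.

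Of the genes that restrain the receptors or ERK, none passed in edgeR or DESeq2 at either time. At 1 week 1 of 11 receptor restraint genes had an unadjusted p under 0.05 with a higher value in KO (10.5% of all genes). The median log2 fold change was 0.98. Errfi1, an inhibitor that binds the Egfr kinase and is itself switched on by Egfr signalling, had 6.63, 7.57 and 7.73 CPM in WT, against 7.81, 9.06 and 44.1 CPM in KO (log2 fold change 1.55, edgeR adjusted p 0.352). Its KO libraries lay above the WT libraries, but KO replicates 1 and 2 by little. Socs4 (log2 fold change 1.15, adjusted p 0.287) and Cblb, a ubiquitin ligase (0.98, adjusted p 0.328), were also above WT in each KO library. Such a separation was thus seen in 3 of 11, against 12.4% of all genes. Lrig2 was below WT in each KO library, as were 1796 of 12754 genes. Of 8 ERK feedback genes tested at 1 week, 0 had an unadjusted p under 0.05 (10.5% of all genes with a higher value in KO), and the median was 0.04. The Ras inhibitors Spry4 and Spry1 had log2 fold changes of 1.59 and -1.49, and the ERK phosphatase Dusp4 of 1.58 (adjusted p 0.371 to 0.395). Spry4, with as few as 2 counts in a WT library, needed KO to pass the count filter, so its value is a description. Dusp4 was at 130.6 CPM in KO replicate 3 and between 13.5 and 31.3 CPM in the other 5 libraries.

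At 1 month 0 of 11 receptor restraint genes and 0 of 4 ERK feedback genes had an unadjusted p under 0.05 in edgeR, against 21.5% of all genes. Their medians were 0.06 and 0.69, beside -0.01 over all genes. The restraint genes with the smallest p were Lrig3 (log2 fold change 0.54), Rnf41 (-0.63) and Lrig2 (0.40), with adjusted p between 0.280 and 0.334. The feedback genes Dusp6 (0.98), Spry1 (0.81) and Spry2 (0.58) had adjusted p between 0.295 and 0.395. Dusp6 and Spry1, with as few as 4 and 5 counts in a WT library, needed KO to pass the count filter. Their values and the feedback median of 0.69 are therefore a description.

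Adaptors and kinases of the cascade were centred near 0 at both times, with median log2 fold changes of 0.05 over 27 genes at 1 week and -0.03 over 26 at 1 month. At 1 week 0 passed in edgeR, and 1 gene in each direction had an unadjusted p under 0.05 (10.5% of all genes with a higher value in KO). DESeq2 called 1 higher (4.67%). That gene was Gab2, a docking protein that links receptors to PI3K, with 27.5, 22.7 and 21.2 CPM in WT, against 58.7, 58.1 and 68.0 CPM in KO. All KO libraries had close values, KO replicate 1 among them. The Gab2 log2 fold change was 1.43 (SE 0.27, edgeR adjusted p 0.107, DESeq2 adjusted p 6.55e-04). Its relative Gab1, a docking protein used by Egfr itself, was lower in each KO library, with 4.24 to 9.29 CPM against 15.0 to 22.9 CPM in WT (log2 fold change -1.27, edgeR adjusted p 0.217). Plcg1, a phospholipase that Egfr activates, had a log2 fold change of 2.35 with overlap (adjusted p 0.402).

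At 1 month Akt1, a kinase downstream of PI3K, rose in KO and was the 1 of 26 cascade genes that passed in edgeR. It had 12.9 and 14.3 CPM in WT, against 76.5 and 60.8 CPM in KO in batch 2, and 103.2 CPM in WT, against 153.6 CPM in KO in batch 3. The groups overlap across the batches, and KO was higher within each, though in batch 3 the KO library was the one with Xist. The log2 fold change was 1.66 (SE 0.33, edgeR adjusted p 0.0306), with 2.30 within batch 2 and 0.57 within batch 3. The call did not hold without WT replicate 1 or 2 or KO replicate 1 or 2 (adjusted p 0.126, 0.164, 0.0733 and 0.0817), without batch in the fit (log2 fold change 1.11, adjusted p 0.713), or with all 12 libraries in a fit (adjusted p 0.504), settings applied to Akt1 after its call was seen. DESeq2 gave an adjusted p of 8.76e-05. At 1 week Akt1 had a log2 fold change of -0.72 (adjusted p 0.626), and the difference between the times did not pass (adjusted p 0.183).

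Genes that growth factors are known to switch on within minutes to hours were listed as response genes. Of 15 tested at 1 week, 0 passed in edgeR, 5 had an unadjusted p under 0.05 with a higher value in KO (10.5% of all genes), DESeq2 called 3 higher (4.67% of all genes), and the median log2 fold change was 0.57. Egr1, an early transcription factor downstream of ERK, had 22.3, 18.4 and 13.8 CPM in WT, against 45.2, 143.6 and 842.2 CPM in KO. The Egr1 log2 fold change was 4.33 (SE 1.06, edgeR adjusted p 0.139, DESeq2 adjusted p 9.30e-05), with the lowest KO value again in replicate 1. Fosb, of the AP-1 family, was at 1.03 to 1.63 CPM in WT, against 2.83 to 12.1 CPM in KO (log2 fold change 2.28, edgeR adjusted p 0.182). Fosb passed the count filter only through its KO libraries, so its values are a description. Jun had a log2 fold change of 1.61 with overlap (adjusted p 0.299).

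Egr1 was also higher in each KO library at 1 month, with 6.84, 16.9 and 9.76 CPM in WT, against 27.2, 84.1 and 34.2 CPM in KO. Its log2 fold change was 2.02 (SE 0.46, edgeR adjusted p 0.0600, DESeq2 adjusted p 1.24e-04), with 2.12 within batch 2 and 1.78 within batch 3. Of 13 response genes tested then, 0 passed in edgeR, and 1 in each direction had an unadjusted p under 0.05 (21.5% of all genes in either direction). DESeq2 called 1 (6.21%), and the median was 0.16. Ccnd1, cyclin D1 of entry into the cell cycle, had -0.67 (adjusted p 0.120) at 1 month and -0.33 (adjusted p 0.713) at 1 week. Dusp1 had 1.25 (adjusted p 0.333) at 1 month.

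At 1 month 0 of 10 proliferation genes passed in edgeR, 3 had an unadjusted p under 0.05 with a lower and 1 with a higher value in KO (21.5% of all genes in either direction), and DESeq2 called 1 (6.21%). The helicase subunits Mcm5 and Mcm6 had log2 fold changes of -1.30 and -1.70 and Mcm2 of 1.12, with edgeR adjusted p between 0.0642 and 0.143. Mcm6, with as few as 8 counts in a KO library, needed WT to pass the count filter. Mcm2, with as few as 7 counts in a WT library, needed KO. Their values and the numbers of genes called are therefore a description. Leukocyte markers summed to 509.7 to 1042 CPM in WT, against 217.7 to 326.3 CPM in KO at that time. Of 7 tested, edgeR called 3, all lower, against 2.22% of all genes in either direction. It called 1 of 15 urothelial markers lower, 1 of 13 smooth muscle and fibroblast markers higher and 0 of 5 endothelial markers. The part of these cells in the values above was not tested.

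**Figure D5:**
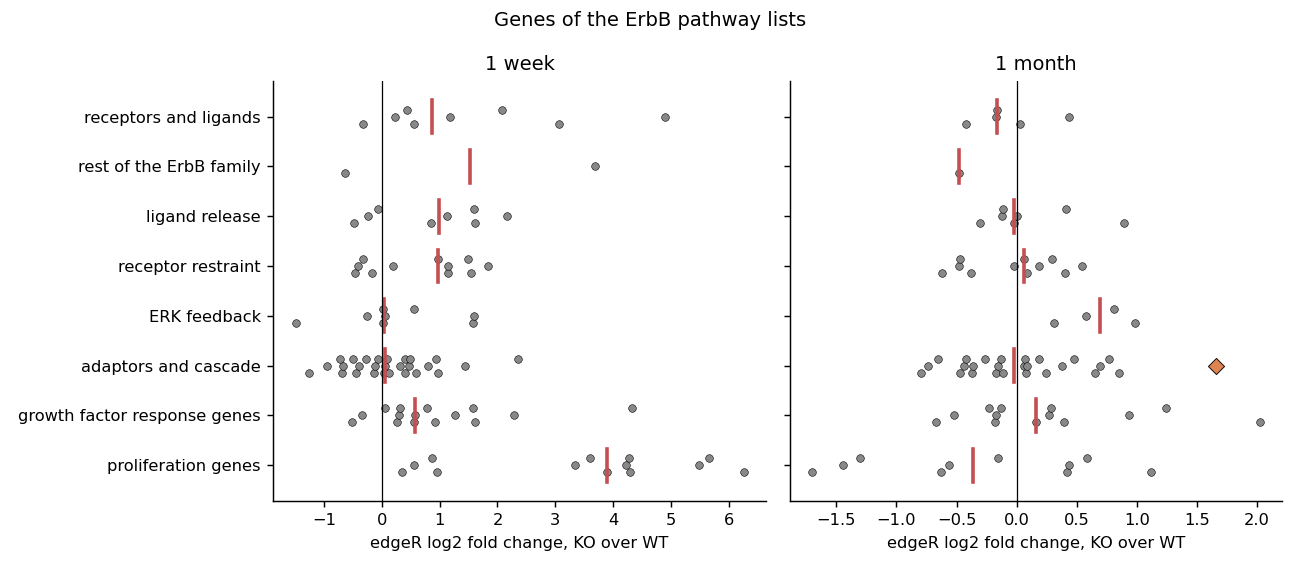
EdgeR log2 fold changes of KO over WT (horizontal axes, each panel with its own scale) at 1 week and 1 month for each tested gene of the lists, with 1 grey point per gene, an orange diamond for a gene past an adjusted p of 0.05, and a red bar at the list median. At 1 week all 13 proliferation genes lie above 0, the cascade has medians of 0.05 and -0.03, and the diamond at 1 month is Akt1.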

How the data were processed

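Total RNA was made into QuantSeq 3′ (FWD) libraries, per the labels' protocols, which yield sense reads from the 3′ end of each polyadenylated RNA. The authors deposited raw counts per gene symbol, 1 table per time. The submitters' processing notes name Bowtie, TopHat, HTSeq, DESeq2 and the build mm10, and versions and annotation are not given in the sources used here. The title and library name of WT replicate 3 at 1 month carry different animal numbers, and its column was matched through the library name. Replicates were numbered in accession order.

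The counts were tested with edgeR 4.0.16 (R 4.3.3): quasi-likelihood, robust, TMM, default filter, two-sided, adjusted over all genes tested, threshold 0.05, 1 fit per time, with batch at 1 month. All libraries of 1 week are batch 1, and 1 month holds batches 2 and 3. The SE is the log2 fold change over the square root of F. Each library has a number of its own, but the labels do not say that each is 1 animal, so p measures the spread between these samples, which may be technical. No pair of replicates was within sampling noise. DESeq2 1.42.0 was an alternative, beside other scaling, filters, dispersions, fits and left-out libraries. The steps were tested on simulated data. The genes, the lists and the tests were chosen with earlier results of these data known. Beyond the family, genes were named by a rule: called genes of each list at each time, otherwise the 3 with the smallest p, and the 3 genes most like each family member. A gene that this rule names is not reported here. Hras1 and Emr1 are the listed symbols of Hras and Adgre1.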

Additional observations from a re-analysis of the deposited data

How the results depend on the processing

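No paired analysis was possible because the labels give no replicate numbers that groups share. The number of family genes called at 1 week was 0, and it was 4 under DESeq2, 2 when all 12 libraries shared a fit, and 0 to 1 when a library was left out, 1 without KO replicate 1. At 1 month it was 0 under every alternative run. For the difference between the times it was 0, 1 under DESeq2, and 0 to 1 with a library left out. Over all genes, 8 passed at 1 week, 891 under DESeq2, 553 in the fit of 12 libraries, 62 without a filter, and 0 to 320 with a library left out. At 1 month 269 passed, 727 under DESeq2, 561 with library size alone, 1276 without a filter, 1474 in batch 2 alone, 0 without batch or in the fit of 12, and 45 to 1522 with a library left out. For the difference 0 passed, 856 under DESeq2, 137 without a filter, 15 without batch 3 (added after seeing the data) and 0 to 440 with a library left out.

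These log2 fold changes, none of which passed the test, changed direction. At 1 week, with a library left out, Erbb2 ran from -0.16 to 0.48, Areg from -0.79 to 1.04 and Tgfa from -1.16 to 0.24. At 1 month Egfr had 0.069 with library size alone, 0.14 in batch 2 and -0.37 to 0.13 with a library left out. Tgfa had 0.065 with library size alone and -0.59 to 0.39 with a library left out. Btc had -0.0020 without batch, -0.12 in batch 2 and -0.54 to 0.46 with a library left out. In the difference, Tgfa ran from -0.44 to 0.94 with a library left out. The cause was not tested. The group levels were recomputed under other scalings, and all 72 recomputed values stayed within 1 SD of those given. Epgn levels in groups without a count could not move. Without KO replicate 1 or 2 of 1 week, 5 of the 9 genes lay above WT in all remaining KO libraries, and without replicate 3 it was 3 (added after seeing the data). Of the 8 tested this is 4, 4 and 2, against 16.4%, 19.6% and 18.8% of genes. Low counts limit what can be said of Epgn, Ereg, Areg and Erbb3 at 1 month, where most libraries had 3 counts or fewer. The part of depth in this was not tested.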
